A study of Mus musculus with 12 samples.

Results

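The genes described here make up the protein-folding and quality-control machinery of the endoplasmic reticulum (ER). They form a list of 34 genes, among the 56065 listed, that share this function; the list was drawn up with earlier results of these data known. The list holds 9 chaperones and co-chaperones (Hspa5, Hsp90b1, Dnajb9, Dnajb11, Dnajc3, Sdf2l1, Manf, Creld2 and Ppib) and 4 genes of the lectin cycle that folds glycoproteins (Calr, Canx, Uggt1 and Pdia3). It further holds 9 genes of disulfide exchange and the protein disulfide isomerase family (Pdia4, Pdia6, P4hb, Ero1a, Ero1b, Txndc5, Txndc11, Erp44 and Erp29, the last a family member by fold that lacks a redox-active site), called disulfide genes below, and 9 genes of ER-associated degradation, or ERAD (Herpud1, Edem1, Edem2, Sel1l, Syvn1, Derl1, Derl2, Derl3 and Selenos). The last 3 are the stress sensors Atf6 and Ern1 and the transcription factor gene Xbp1. All 34 were found, and all 34 passed the filter on low counts, the lowest count of any of them in any library being 284.

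The RNA came from the submandibular gland (SMG) of mice aged 8 weeks, with 1 library per mouse. The 4 groups of 3 mice each were wild-type (WT) C57BL/6J females, C57BL/6J-Pou2f3 knockout females, WT C57BL/6J males and C57BL/6J-Pou2f3 knockout males. Pou2f3 encodes the transcription factor that defines tuft cells, rare chemosensory cells of the gland ducts. The knockout is an edited allele of a line from Jackson Laboratory and is carried by every cell of the mouse, not by tuft cells alone. The study asked how the absence of Pou2f3 changes the gland's transcriptome in each sex.

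A submandibular gland makes large amounts of secreted protein, and nearly all of it folds in the ER. Chaperones such as BiP, the product of Hspa5, hold new chains; protein disulfide isomerases and ERO1 oxidases form their disulfide bonds; calnexin and calreticulin retain glycoproteins until they are folded. Chains that fail are drawn back across the membrane and degraded by ERAD. The unfolded protein response (UPR) adjusts this capacity through ATF6, the IRE1 kinase encoded by Ern1, which splices the Xbp1 transcript, and the PERK kinase encoded by Eif2ak3. Gene-level counts such as these do not separate spliced from unspliced Xbp1.

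Several of these genes share a promoter element, and it is shown here because their values across the male glands are described by it further on. The ER stress response element (ERSE), CCAAT and CCACG with 9 bases of any kind between them, is known to be bound by NF-Y together with ATF6 or XBP1. The related ERSE-II reads ATTGG, 1 base of any kind and CCACG. The window from 250 bases before to 50 after the canonical start of each gene was read from the GRCm39 genome on both strands. An exact ERSE lay in the window of 10 of the 34 genes and of 27 of 21757 coding genes (0.124%). An ERSE-II lay in 3 of the 34 and in 15 of all (0.0689%). A UPR element-like TGACGTGG lay in 0 of the 34 and in 157 of all (0.722%), so that 13 of the 34 held an ERSE or ERSE-II and 21 held neither. The 34 were chosen for their roles in the ER and the UPR, so these shares describe the list and were not tested. ERSE windows are printed for genes whose values are described most, in the direction of transcription, with the fixed bases of the motif in capitals; where the motif lies on the other strand the capitals read CGTGG and ATTGG or CCAAT:
Hspa5 chr2:34662032-34662060 (+): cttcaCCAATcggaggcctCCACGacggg
Hsp90b1 chr10:86541497-86541525 (-): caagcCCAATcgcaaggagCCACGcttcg
Creld2 chr15:88703718-88703746 (+): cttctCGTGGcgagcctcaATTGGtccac
Dnajc3 chr14:119175234-119175262 (+): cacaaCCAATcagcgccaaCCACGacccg
Pdia6 chr12:17316487-17316515 (+): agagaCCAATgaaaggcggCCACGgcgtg
Syvn1 chr19:6096557-6096585 (+): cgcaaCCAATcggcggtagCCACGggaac
Manf chr9:106769233-106769253 (-): gggcaCGTGGaCCAATgagga
Herpud1 chr8:95113000-95113020 (+): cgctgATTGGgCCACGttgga

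Counting the base before the canonical start as -1, the printed stretch runs from -72 to -44 in Hspa5, from -46 to -18 in Pdia6 and from -37 to -17 in Herpud1. In Hspa5 this stretch also falls within an exon of another annotated transcript that starts further upstream. Calr, Canx, Derl3 and Ero1b hold an ERSE too, Hsp90b1 holds a second one, and the ERSE-II of Dnajb11 lies after the start, at 14 to 24. Sdf2l1, Pdia4 and Sel1l, which vary much like the ERSE genes in the values below, hold no exact match in this window, which says only that these letters are absent from it.

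Estimated counts summed to between 47031917 and 67881902 per library. The 20 most abundant genes took 51.9% to 79.3% of them, most in WT females. Pou2f3 itself had 1, 0 and 2 counts in WT females, 0 in all 3 knockout females, 1, 10 and 0 in WT males and 0, 3 and 1 in knockout males, so at this depth it does not check the genotype labels. Of the 7 other tuft cell markers, Gnat3 and Il25 were at 0 in every library, Trpm5 had at most 4 counts, Chat 5 and Sh2d6 12. The other two were detected throughout: Dclk1 had 477 to 1198 counts and did not pass in females (0.19, adjusted p = 0.22) or males (0.11, adjusted p = 0.80), and Avil had 2 to 55 counts and was higher in knockout females (2.06, adjusted p = 0.014). All values below are normalized counts, that is, counts adjusted by TMM (the trimmed mean of M values) and brought to the mean library size, unless another scale is named.

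The abundance of the 34 genes is compared between genes here as TMM-adjusted CPM per kilobase of annotated exon (mean ± SD, n = 3). That length joins the exons of all annotated transcripts of a gene, such as 10648 bases for Erp29 and 12163 for Manf. It is not the length of the transcript present in the gland, so the order of the genes holds for this scale only. P4hb, which encodes protein disulfide isomerase itself, was the most abundant member in every group, at 292.5 ± 17.2 in WT females, 166.6 ± 3.93 in knockout females, 202.1 ± 40.7 in WT males and 188.0 ± 10.9 in knockout males. In WT females it was followed by Calr at 80.9 ± 8.05 and Herpud1 at 70.8 ± 7.22, which overlap within 1 SD, and by Hspa5 at 61.4 ± 4.61. In knockout males the second place was held by Hspa5 at 165.2 ± 70.7, whose spread takes in the values of P4hb and of Calr (140.4 ± 30.5). Xbp1 ranked 6 in WT females, at 44.5 ± 8.94, and 19 in knockout males, at 17.8 ± 0.789. Erp29 was lowest on this scale in WT females at 1.26 ± 0.186, whereas in mean normalized counts Creld2 (614) was below Erp29 (773) there.

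**Figure D1:**
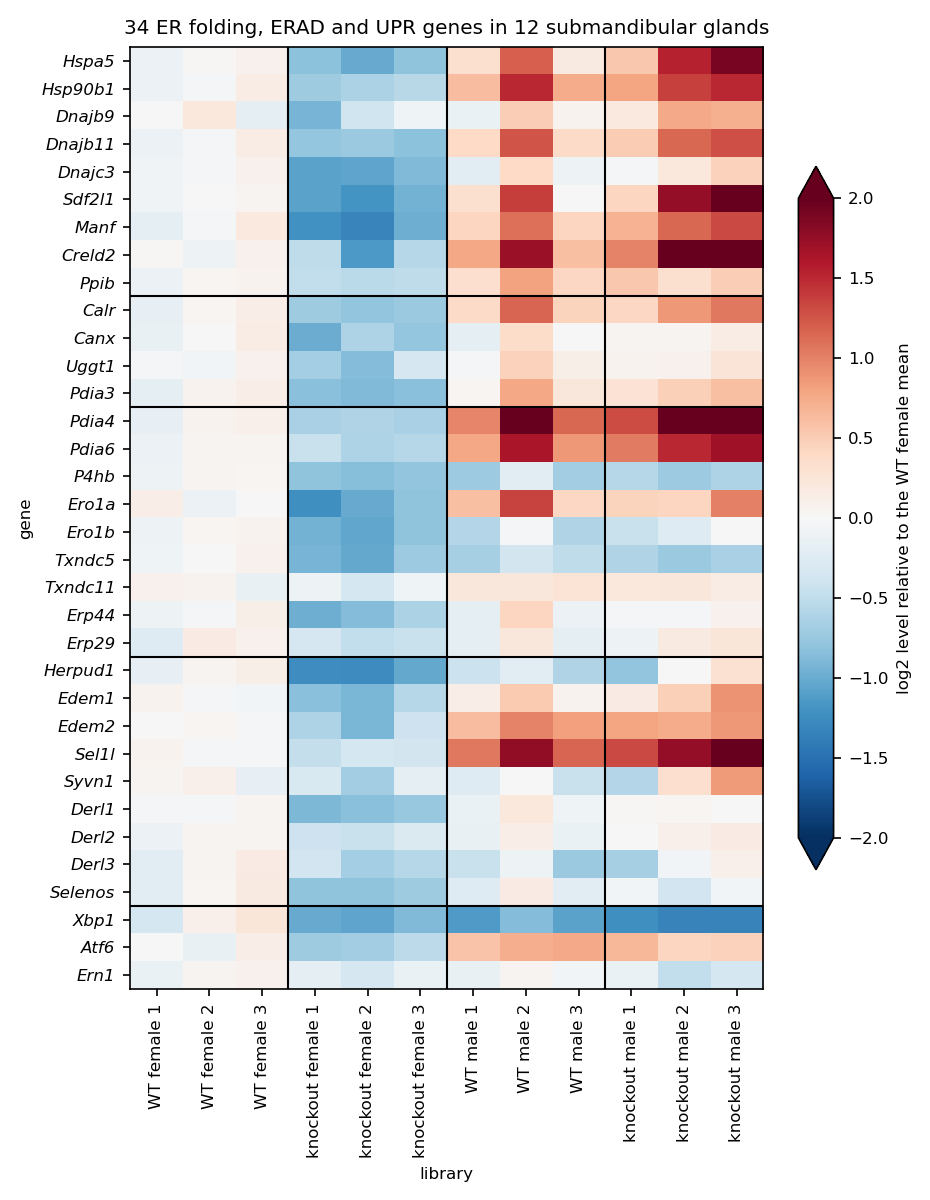
Log2 level of each of the 34 genes (rows, grouped by role: chaperones, lectin cycle, disulfide exchange, ERAD, sensors and Xbp1) in each of the 12 libraries (columns), relative to the mean of the 3 WT females; red is higher and blue lower, and the scale ends at ±2. The 3 knockout female columns are blue in nearly every row, and WT male 2, knockout male 2 and knockout male 3 are the reddest male columns for the chaperones.

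In females, the knockout glands held less RNA for most of the list. Of the 34 genes, 26 fell, 0 rose and 8 did not pass the threshold (edgeR's quasi-likelihood test, Benjamini-Hochberg adjusted p under 0.05 over 17893 genes). Among all genes tested, 19.3% fell and 17.6% rose. Among the 5385 coding genes at least as abundant as Erp29, 43.1% fell, so the member count is to be read against that share as well. The 34 log2 fold changes were all negative, from -1.17 (Herpud1) to -0.18 (Txndc11), with a median of -0.76, beside a median of 0.03 over all genes and -0.24 over the abundant coding genes. The libraries of the 2 groups did not overlap for 32 of the 34, the exceptions being Dnajb9 and Txndc11; 24.1% of all genes were lower without overlap. The summed level of the 34 genes was 261603, 287369 and 298921 in WT females and 162135, 157906 and 173808 in knockout females.

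Among the chaperones, 7 of 9 fell in knockout females. Hspa5 (ENSMUSG00000026864.14, chr2:34661982-34668880) stood at 18063, 20084 and 20944 in WT females and at 11103, 9792 and 11203 in knockout females (log2 fold change -0.88 ± 0.31 SE, adjusted p = 0.04). The groups were well apart, but the margin of the call is narrow: it is lost when any of knockout female 1, 2 or 3, WT female 2 or 3 or knockout male 2 is left out, with adjusted p-values up to 0.09. Dnajc3, the co-chaperone that also restrains PERK, went from 15011, 15399 and 16735 to 7513, 7560 and 8532 (-0.998 ± 0.17, adjusted p = 0.00091). Manf (ENSMUSG00000032575.17, chr9:106715511-106769727), which encodes a secreted, stress-responsive protein that binds BiP, went from 2307, 2557 and 2996 to 1128, 1044 and 1322 (-1.17 ± 0.20, adjusted p = 0.00096). Each knockout female was thus close to the level of the others, and every one lay below every WT female. Manf overlaps the coding gene Rbm15b on the same strand in the annotation, so its reads may be shared in part. Hsp90b1 (-0.64), Dnajb11 (-0.78), Sdf2l1 (-1.07) and the prolyl isomerase Ppib (-0.51) also fell. The calls of Hsp90b1 and Sdf2l1 were lost without any 1 of the knockout females, WT female 2 or 3 or knockout male 2, and for Sdf2l1 also without WT female 1 (highest adjusted p 0.11 and 0.095). That of Dnajb11 was lost without WT female 3 (0.054). Creld2, at -0.72 ± 0.37 (adjusted p = 0.14), and Dnajb9, at -0.44 ± 0.22 (adjusted p = 0.13), did not pass the test.

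All 4 genes of the lectin cycle fell in knockout females. Canx and Calr encode the membrane-bound and soluble lectins, Pdia3 the oxidoreductase they recruit, and Uggt1 the glucosyltransferase that marks misfolded glycoproteins for another round. Their log2 fold changes were -0.79 for Canx, -0.75 for Calr, -0.86 for Pdia3 and -0.62 for Uggt1, with adjusted p-values between 0.0017 and 0.015.

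Of the disulfide genes, 6 of 9 fell. Txndc5, a thioredoxin-domain isomerase, went from 12321, 13098 and 13846 in WT females to 6895, 6450 and 7936 in knockout females (-0.88 ± 0.12, adjusted p = 0.00032). Ero1b, one of the oxidases that reoxidize the isomerases, went from 7855, 8687 and 8899 to 4406, 4127 and 4858 (-0.93 ± 0.16, adjusted p = 0.0011). In both genes the highest knockout female was well below the lowest WT female. The other oxidase, Ero1a, fell by 1.01 on the log2 scale, P4hb by 0.81, Erp44, which retrieves the oxidases to the ER, by 0.82, and Erp29 by 0.43. The call of Erp29 was lost without knockout female 2 or 3 or WT female 2 or 3 (adjusted p up to 0.092). Pdia4 (-0.64 ± 0.28, adjusted p = 0.09), Pdia6 (-0.55 ± 0.21, adjusted p = 0.056) and Txndc11 (-0.18 ± 0.09, adjusted p = 0.16) did not pass. 

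In ERAD, 7 of 9 genes fell. Derl1 (ENSMUSG00000022365.7, chr15:57731819-57755879), a channel-forming derlin, had the smallest adjusted p of the list: 2393, 2385 and 2545 in WT females against 1311, 1371 and 1439 in knockout females (-0.83 ± 0.09, adjusted p = 0.00018). Selenos, a selenoprotein that links the derlins to the p97 ATPase, went from 2235, 2691 and 2943 to 1493, 1496 and 1600 (-0.78 ± 0.14, adjusted p = 0.0011). Herpud1, a scaffold of the ubiquitin ligase complex, went from 14037, 16388 and 17132 to 6663, 6625 and 7806 (-1.17 ± 0.22, adjusted p = 0.0016). Herpud1 thus showed the largest decrease of the 34, with Manf next to it. The mannosidase-like lectins Edem1 (-0.77) and Edem2 (-0.64) and the derlin Derl2 (-0.38) fell as well. Derl3 fell by 0.55 (adjusted p = 0.047), a call lost without any 1 of 7 libraries: the 3 knockout females, WT female 2 or 3, WT male 1 or knockout male 2 (adjusted p up to 0.13). The ubiquitin ligase Syvn1 (-0.38 ± 0.27, adjusted p = 0.29) and its partner Sel1l (-0.40 ± 0.21, adjusted p = 0.15) did not pass.

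Of the sensors and Xbp1, 2 of 3 fell. Xbp1 (ENSMUSG00000020484.20, chr11:5470606-5483027) stood at 13840, 18853 and 20775 in WT females and at 8753, 8423 and 9526 in knockout females (-1.002 ± 0.15, adjusted p = 0.00045). The WT females were the highest of all 12 libraries for this gene. Atf6 went from 3529, 3153 and 3829 to 2127, 2157 and 2423 (-0.65 ± 0.11, adjusted p = 0.00079). Ern1, in contrast, stood at 3735, 4235 and 4339 in WT females and at 3598, 3235 and 3726 in knockout females, with groups that do not overlap but lie close together (-0.22 ± 0.11, adjusted p = 0.14; 0.03 without WT female 1).

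**Figure D2:**
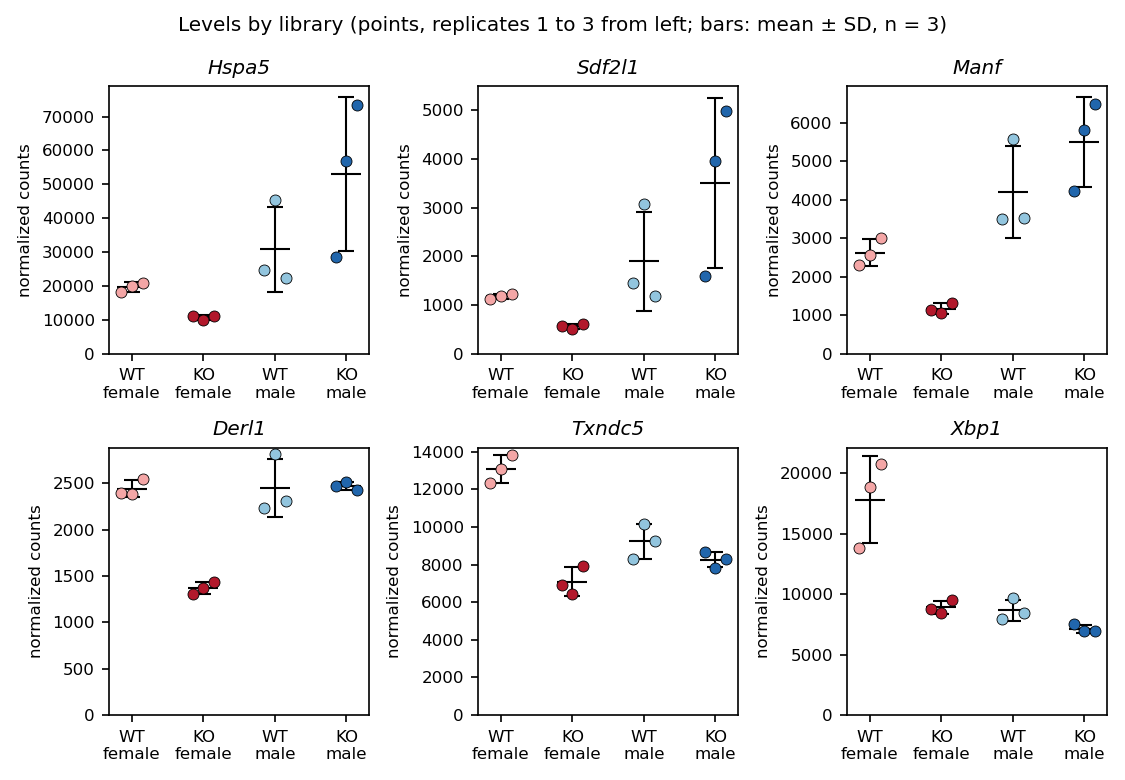
Normalized counts (vertical axes, from 0) of Hspa5, Sdf2l1, Manf, Derl1, Txndc5 and Xbp1 in each of the 12 libraries by group (points, replicates 1 to 3 from left), with the mean and SD of 3 mice as bars. The knockout females have the lowest mean for all genes shown except Xbp1, where they lie near both male groups, and the male groups are widest for Hspa5 and Sdf2l1.

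Markers of cell types moved in the same female comparison. Of 13 acinar markers tested, 5 fell in knockout females (Aqp5, Pip, Mucl2, Lpo and Slc12a2) and 0 rose. Their summed level was 21873037 to 34679762 in WT females and 12704492 to 15149822 in knockout females, most of it Mucl2. Bhlha15, the transcription factor of secretory acinar cells, was at -0.25 (adjusted p = 0.24). The 5 adipocyte markers summed to 182, 609 and 3781 in WT females and to 69, 408 and 20 in knockout females, and 2 of 5 macrophage, 3 of 9 duct and 4 of 5 myoepithelial markers fell. Plasma cells express many of the genes described here. Of 10 plasma cell markers 8 were tested, and 2 fell in knockout females, Sdc1 (-0.50, adjusted p = 0.012) and Derl3, which is itself one of the 34. Sdc1, which epithelia express as well, ranged from 366 to 796 across the libraries, Ighm from 124 to 472, Igha from 6.2 to 606, Igkc from 0 to 249.0 and Jchain from 2.25 to 169, while Mzb1 did not exceed 9.33 and Tnfrsf17 4.52. Without Derl3 the plasma cell markers summed to 1186, 2031 and 972 in WT females and to 848, 1166 and 638 in knockout females, which overlap. The part of these cell types in the decreases was not tested, and in whole glands fewer cells of a type and less RNA per cell cannot be told apart. Of 14 circadian clock genes, 10 fell and 2 rose in knockout females, with Dbp at -2.58 and Bmal1 at 3.45; in males 8 fell and 2 rose, with Dbp at -3.17 and Bmal1 at 2.87. The time of day at which glands were taken is not given in the sources used here, and its part in the values of the 34 genes was not tested.

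In males, the same comparison gave 0 genes higher and 0 lower among the 34 (edgeR, adjusted p under 0.05), with 5 at an unadjusted p under 0.05: Hspa5, Sdf2l1, Creld2 and Pdia4 on the higher side and Ern1 on the lower. These 5 of 34 stand beside 11.5% of all genes and 10.6% of the abundant coding genes, so the share is near the background. Among all genes tested with edgeR, 0.101% rose and 0.134% fell, 42 in all. DESeq2 likewise called 0 of the 34, where it called 388 of 17654 genes in either direction. The 34 log2 fold changes ran from -0.28 (Xbp1) to 0.96 (Creld2) with a median of 0.14, beside -0.04 over all genes, and 22 of the 34 were positive. This median depended on single mice: it was 0.35 without WT male 2 and 0.25 without knockout male 1, and 0.04 without knockout male 3, 0.06 without WT male 1 and 0.07 without WT male 3. The libraries were higher without overlap for 0 of the 34 (6.51% of all genes) and lower without overlap for 2, Xbp1 and Txndc11 (7.95% of all genes).

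The male values were set apart by their spread. Hspa5 stood at 24667, 45202 and 22363 in WT males and at 28602, 56964 and 73498 in knockout males (0.79 ± 0.31, adjusted p = 0.33). WT male 2 was thus above knockout male 1, and the male genotypes overlapped. Sdf2l1, a component of ER chaperone complexes named here after its values were seen because its male range was the widest, stood at 1459, 3067 and 1179 in WT males and at 1586, 3969 and 4993 in knockout males (0.89 ± 0.37, adjusted p = 0.37). Creld2, chosen in the same way, stood at 1046, 2028 and 927 and at 1219, 2789 and 3773 (0.96 ± 0.35, adjusted p = 0.30). In all 3 genes WT male 2, knockout male 2 and knockout male 3 were high, and the other 3 males were low. The ratio of the highest to the lowest of the 6 males was 4.23 for Sdf2l1, 4.07 for Creld2, 3.29 for Hspa5, 2.78 for Pdia4 and 2.72 for Syvn1. It was 1.39 for Xbp1, 1.26 for Derl1, 1.25 for Atf6 and 1.09 for Txndc11.

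Across the list, WT male 2 was the highest of the WT males in 32 of 34 genes (94.1%), beside 54.9% of the abundant coding genes. Knockout male 1 was the lowest of the knockout males in 22 of 34 (64.7%), beside 23.9%, and knockout male 3 the highest in 25 of 34 (73.5%), beside 24.6%. Knockout male 1 was the highest of its group in 6 of 34 (17.6%), beside 59.1% of the abundant coding genes. Single mice also stood out by rank in females: knockout female 3 was the highest of its group in 23 of 34 (67.6%), beside 24.7%, knockout female 2 the lowest in 22 of 34 (64.7%), beside 35.1%, and WT female 3 the highest in 23 of 34 (67.6%), beside 43.1%. These shares are descriptions of single libraries. The summed level of the 34 genes was 270944, 413939 and 279696 in WT males and 296576, 377805 and 445151 in knockout males. The median SD of log2 level between mice was 0.300 in WT males and 0.229 in knockout males, against 0.122 in WT females and 0.107 in knockout females. For the abundant coding genes it was 0.125, 0.113, 0.124 and 0.129 in the same order, so the members' female spread was like that of other genes and their male spread was wider.

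The genes with an ERSE or ERSE-II had the wider male spread. Their median SD was 0.385 in WT males and 0.383 in knockout males, against 0.243 and 0.125 in the 21 genes without. Sdf2l1 and Pdia4 had wide spread without a match, and Canx, which holds an ERSE, varied little between knockout males (SD 0.0534). All 13 genes with a match had a positive male log2 fold change, with a median of 0.28, against a median of -0.05 in the other 21. None of the 13 passed the threshold, and Canx stood at only 0.007. With a single library left out, Canx reached as low as -0.11 and Calr -0.05, so the shared sign depended on single mice. No test was made of this split. Leaving out knockout male 1, the lowest of its group for most of the 34 genes, brought 4 of the 34 past the threshold: Hspa5 (1.09, adjusted p = 0.04), Sdf2l1 (1.24, 0.042), Creld2 (1.30, 0.03) and Syvn1 (0.84, 0.032). Without that mouse 635 of all genes passed in either direction, against 42 with it, and 1.74% of all genes and 1.13% of the abundant coding genes rose, so calls were gained well beyond the list. Leaving out any other library brought 0 of the 34.

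**Figure D3:**
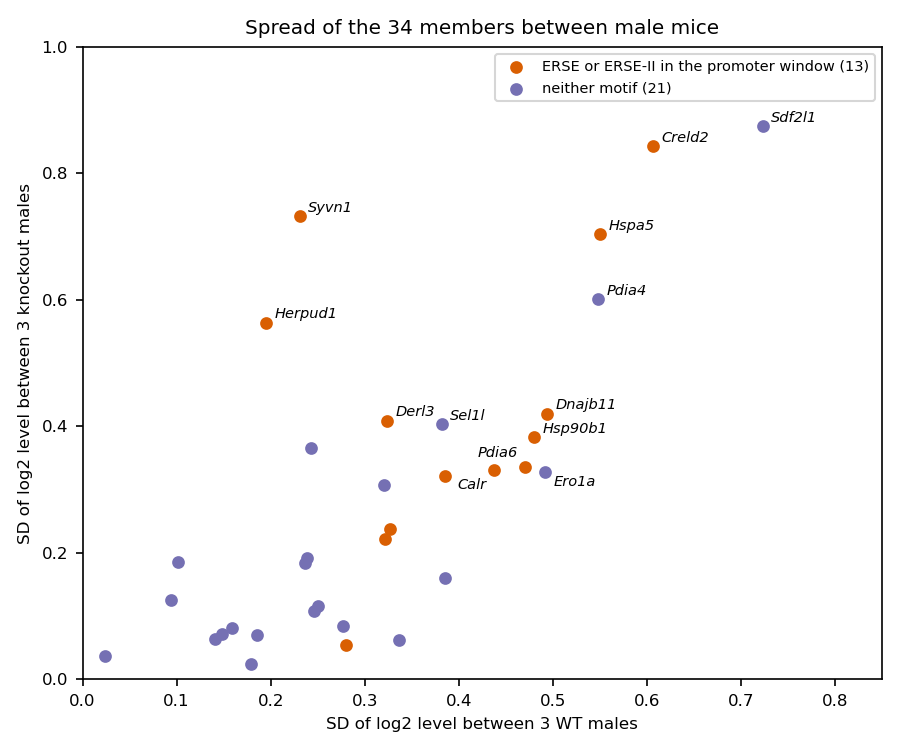
SD of the log2 level of each of the 34 genes between the 3 WT males (horizontal axis) and between the 3 knockout males (vertical axis), with genes coloured by whether an exact ERSE or ERSE-II lies in the promoter window. Sdf2l1, Creld2, Hspa5 and Pdia4 lie far out on both axes, and Syvn1 and Herpud1 on the knockout axis alone.

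Other markers also differed between these mice. The 11 granular tubule markers, which include the kallikreins and Egf, summed to 5248406, 9738243 and 6601785 in WT males and to 6839572, 8035334 and 9228438 in knockout males, so that WT male 2 and knockout males 2 and 3 were the highest here too. The 5 adipocyte markers summed to at most 215 in WT males and knockout male 1, and to 4262 and 2005 in knockout males 2 and 3. The 5 macrophage markers summed to 5207 and 4972 in knockout males 2 and 3, against 2465 to 3037 in the other 4 males. WT male 2 was low for adipocyte (48) and macrophage (2869) markers although high for Hspa5. Acinar, duct and myoepithelial markers ran the other way among knockout males. They summed to 6808070, 35726 and 25205 in knockout male 1. In knockout male 2 the sums were 4549582, 29128 and 16965, and in knockout male 3 they were 4650811, 28326 and 19497. Among WT males, WT male 2 was the highest for these sets too, at 8407538, 34858 and 28191. The part of these tissues in the male spread was not tested.

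The difference between the sexes in the knockout effect was tested directly as an interaction. For 21 of the 34 genes the knockout effect was lower in females than in males, and for 0 it was higher; 32 of the 34 had an unadjusted p under 0.05, beside 40.4% of all genes and 54.5% of the abundant coding genes. At the adjusted threshold, among all genes 12.4% were lower and 13.4% higher, and 27.7% of the abundant coding genes were lower. The median difference was -0.83, beside 0.03 over all genes and -0.21 over the abundant coding genes. By role, 6 of 9 chaperones, 2 of 4 lectin-cycle genes, 5 of 9 disulfide genes, 6 of 9 ERAD genes and 2 of 3 of the sensors and Xbp1 passed. In the same test 5 of 5 adipocyte markers (median -8.50) and 3 of 5 macrophage markers (median -1.47) were lower and none higher, and no acinar, granular tubule, duct or myoepithelial marker passed, with 3 of 13 acinar and 3 of 9 duct markers at an unadjusted p under 0.05. Their part in the members' values was not tested.

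The differences were greatest for Sdf2l1, Creld2 and Hspa5, which also had the largest errors, and the genes below are those with the smallest adjusted p. Derl1, whose male values were 2237, 2812 and 2305 in WT and 2470, 2510 and 2428 in the knockout, gave the smallest adjusted p, with a difference of -0.84 ± 0.13 (adjusted p = 0.0032). Manf, at 3503, 5573 and 3514 in WT males and 4220, 5797 and 6497 in knockout males, differed by -1.56 ± 0.28 (adjusted p = 0.0045). Dnajc3, at 13408, 20587 and 14620 in WT males and 15501, 18242 and 21519 in knockout males, differed by -1.18 ± 0.24 (adjusted p = 0.0062). In Derl1 the 2 male groups overlap fully, while in Manf and Dnajc3 knockout males 2 and 3 were at or near the top. Herpud1, at 11702, 13671 and 10449 in WT males and 9101, 15760 and 19413 in knockout males, differed by -1.48 ± 0.31 (adjusted p = 0.0072). Ero1b, at 5632, 8271 and 5603 and at 6200, 7068 and 8411, differed by -1.08 ± 0.23 (adjusted p = 0.0072). Edem1 stood at 8185, 7677 and 7533 in WT females, 4369, 4151 and 5223 in knockout females, 8551, 11213 and 8225 in WT males and 8774, 10791 and 14510 in knockout males. The knockout females were the lowest group for Edem1, with a difference of -1.05 ± 0.25 (adjusted p = 0.012). Txndc5, at 8289, 10180 and 9234 in WT males and 8644, 7833 and 8323 in knockout males, differed by -0.72 ± 0.17 (adjusted p = 0.01).

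These 7 genes and Pdia3 (-0.94) passed with each of the 12 libraries left out in turn; the other 13 lost their call without WT male 1, and some of them without other libraries too. Hspa5, at -1.67 ± 0.44 (adjusted p = 0.017), lost it without WT male 1 (0.051). Xbp1, at -0.72 ± 0.21 (adjusted p = 0.025), lost it without WT male 1 (0.066) or WT male 3 (0.055). Atf6, at -0.48 ± 0.15 (adjusted p = 0.035), lost it without knockout male 1 or 3 or WT male 1 or 3 (up to 0.088). The count itself was 8 without WT male 1 (where 5.94% of all genes and 15.1% of the abundant coding genes were lower), 12 without WT male 3 and 13 without knockout male 3, and DESeq2 called 32 (14.7% of all genes and 35.3% of the abundant coding genes). Ern1 showed no difference larger than its error, at 0.04 ± 0.16 (adjusted p = 0.86), and its sign changed with the scaling.

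**Figure D4:**
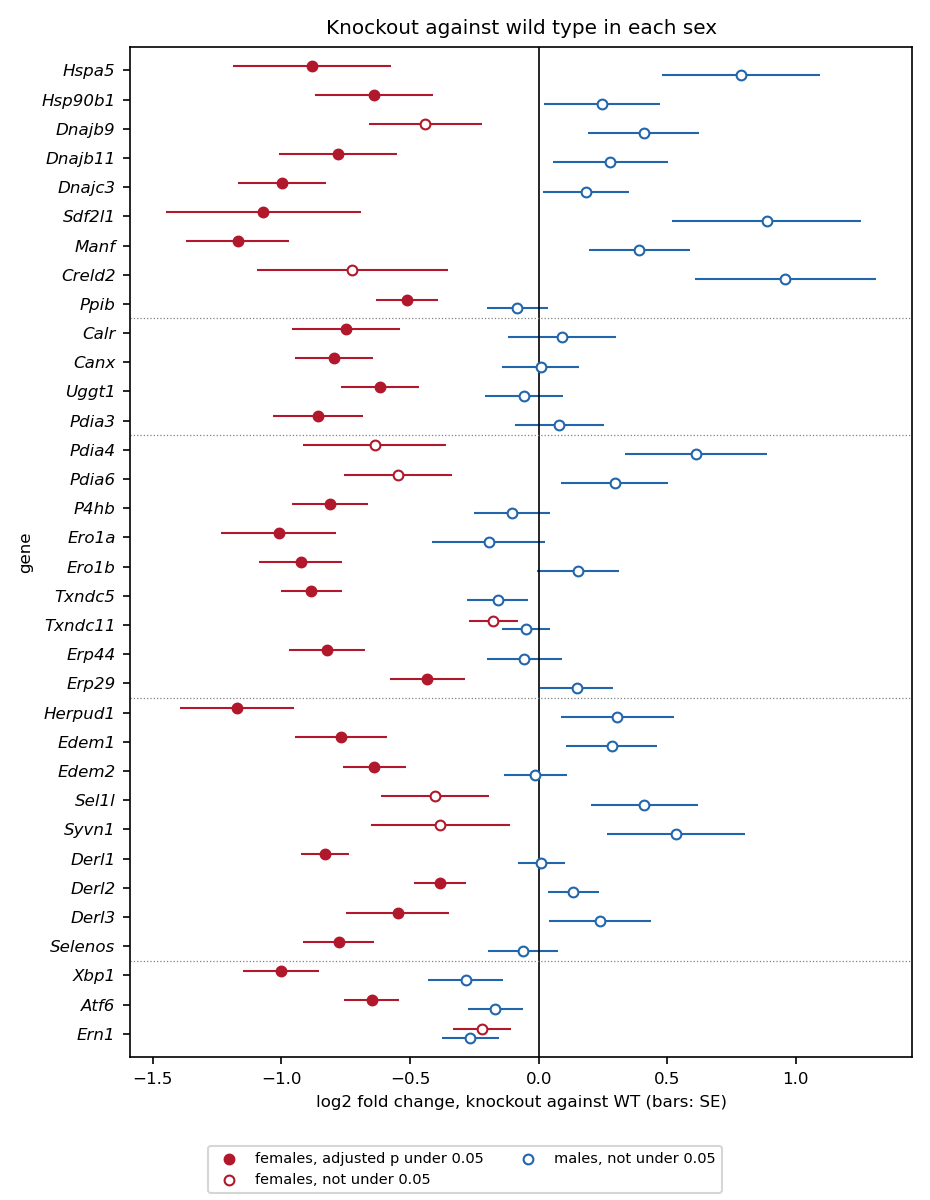
Log2 fold change of knockout against WT (horizontal axis, bars: SE) for each of the 34 genes in females (red) and males (blue), with filled points for an adjusted p under 0.05 in the edgeR test. All female points lie left of 0 and 26 are filled, and the male points lie on both sides of 0 with 0 filled.

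Between WT males and females, 15 of the 34 genes differed, 12 of them higher in males and 3 lower. In either direction 36.5% of all genes and 53.2% of the abundant coding genes were called, and the members' share lies between these values. Granular convoluted tubules, the androgen-dependent secretory ducts of the male mouse gland, are the main known difference between the sexes in this tissue, and 10 of 11 granular tubule markers were higher in males of both genotypes, Klk1 being lower (-1.04 in WT, adjusted p = 0.011). Markers of other cell types differed between WT sexes too: 8 of 13 acinar, 4 of 5 adipocyte and 3 of 5 macrophage markers were lower in males and none higher, and 5 of 5 myoepithelial and 4 of 9 duct markers were higher and none lower. The part of these cell types in the members' values was not tested. Among all genes 20.5% were higher and 16.0% lower in WT males, and among the abundant coding genes 28.3% and 24.9%. The median was 0.22, beside 0.06 over all genes; without WT male 2 it was 0.07, beside 0.06, so the shift of the list rests on that mouse. WT males were higher without overlap for 15 of the 34 (26.7% of all genes) and lower without overlap for 4 (20.9%).

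The members higher in WT males were spread over several roles. Sel1l went from 13508, 12526 and 12521 in WT females to 26767, 43726 and 28809 in WT males (1.36 ± 0.21, adjusted p = 0.00029). Pdia4, a disulfide isomerase, went from 1650, 1941 and 1982 to 3653, 7422 and 4106 (1.45 ± 0.28, adjusted p = 0.0014). Pdia6 went from 2678, 3011 and 2997 to 4946, 8958 and 5273 (1.14 ± 0.21, adjusted p = 0.001). In all of these every WT male was above every WT female, with WT male 2 highest. Edem2 was steadier, from 2169, 2249 and 2147 to 3354, 4332 and 3848 (0.81 ± 0.12, adjusted p = 0.00022). Atf6 went up to 5211, 5776 and 5875 in WT males (0.68 ± 0.11, adjusted p = 0.00029). Hsp90b1, the ER member of the HSP90 family, went from 10369, 11029 and 12453 to 17191, 31897 and 18889 (1.01 ± 0.23, adjusted p = 0.0042). The value of Hsp90b1 was raised most in WT male 2, whereas those of Edem2 and Atf6 were close in all 3 males. Ppib, from 2934, 3256 and 3333 to 4011, 5542 and 4237, differed by 0.53 ± 0.12 (adjusted p = 0.0038). Ero1a, from 2329, 1954 and 2104 to 3230, 5399 and 2829, differed by 0.84 ± 0.22 (adjusted p = 0.0098). The other 4 were Creld2, Dnajb11, Calr and Manf (0.68 to 1.12), whose calls were all lost without WT male 2, WT female 1 or WT female 2, and that of Creld2 also without WT female 3 (adjusted p up to 0.14).

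The 3 genes lower in WT males were Xbp1, Txndc5 and P4hb. Xbp1 stood at 7984, 9641 and 8409 in WT males, below every WT female (-1.04 ± 0.15, adjusted p = 0.00013). Txndc5 differed by -0.50 ± 0.12 (adjusted p = 0.0051). P4hb went from 58608, 65216 and 64821 to 38156, 53551 and 38664 (-0.53 ± 0.15, adjusted p = 0.013), a call lost without WT male 1 (0.062) or WT male 3 (0.058). Without WT male 2, 5 genes were lower, with Derl3 (-0.60) and Ero1b (-0.60) added to these. Hspa5 itself differed by 0.64 ± 0.31 (adjusted p = 0.12; 0.048 without knockout male 1).

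Among knockout mice, males were higher for 28 of the 34 genes and lower for 0, where 23.2% of all genes were higher and 20.3% lower and 41.4% of the abundant coding genes were higher. The median was 1.04, beside -0.02 over all genes, and 29 of the 34 were higher without overlap (27.3% of all genes). All 28 calls held with each library left out in turn. This comparison shares its knockout females with the female genotype comparison and its knockout males with the male one, so its count is not independent of theirs. All 9 chaperones and all 4 lectin-cycle genes were higher, with 7 of 9 disulfide genes, 7 of 9 ERAD genes and Atf6. Cell type markers differed between the knockout sexes too: 8 of 13 acinar markers were lower in males and 0 higher. In males 5 of 5 adipocyte, 3 of 5 macrophage, 8 of 9 duct and 5 of 5 myoepithelial markers were higher and 0 lower. Adipocyte and macrophage markers thus ran opposite to the WT sexes. Their part in the members' values was not tested.

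Edem2 stood at 1421, 1163 and 1633 in knockout females and 3776, 3643 and 4011 in knockout males (1.44 ± 0.12, adjusted p = 2.4e-06). Manf differed by 2.24 ± 0.21 (adjusted p = 3.7e-06) and Atf6, at 5509, 4698 and 4801 in knockout males, by 1.16 ± 0.11 (adjusted p = 4e-06). Sel1l stood at 9186, 10021 and 9941 in knockout females and 32249, 43331 and 56473 in knockout males (2.18 ± 0.22, adjusted p = 7.9e-06). The lowest knockout male for Sel1l was thus above the highest of the 6 females. Pdia6, at 2120, 1883 and 1938 against 5951, 8244 and 9331, differed by 1.99 ± 0.22 (adjusted p = 1.5e-05). Pdia4, at 1180, 1221 and 1181 against 4582, 8464 and 10143, differed by 2.69 ± 0.29 (adjusted p = 1.6e-05). For Pdia4 the knockout females were nearly identical while the knockout males were far apart. Derl1 differed by 0.85 ± 0.09 (adjusted p = 1.7e-05). Hsp90b1, at 6840, 7246 and 7628 against 19459, 29033 and 32161, differed by 1.89 ± 0.23 (adjusted p = 4.2e-05). Hspa5 differed by 2.31 ± 0.32 (adjusted p = 0.0001).

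The 6 genes that did not pass were P4hb (0.17 ± 0.15), Txndc5 (0.22 ± 0.12), Derl3 (0.37 ± 0.20), Syvn1 (0.69 ± 0.27), Xbp1 (-0.32 ± 0.15) and Ern1 (-0.10 ± 0.11), with adjusted p-values from 0.053 to 0.51. Xbp1 stood at 7491, 6940 and 6947 in knockout males, so that the lowest WT female held more than any of the other 9 libraries. Ern1, at 3680, 4241 and 3936 in WT males and 3749, 2904 and 3211 in knockout males, passed none of the comparisons.

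**Figure D5:**
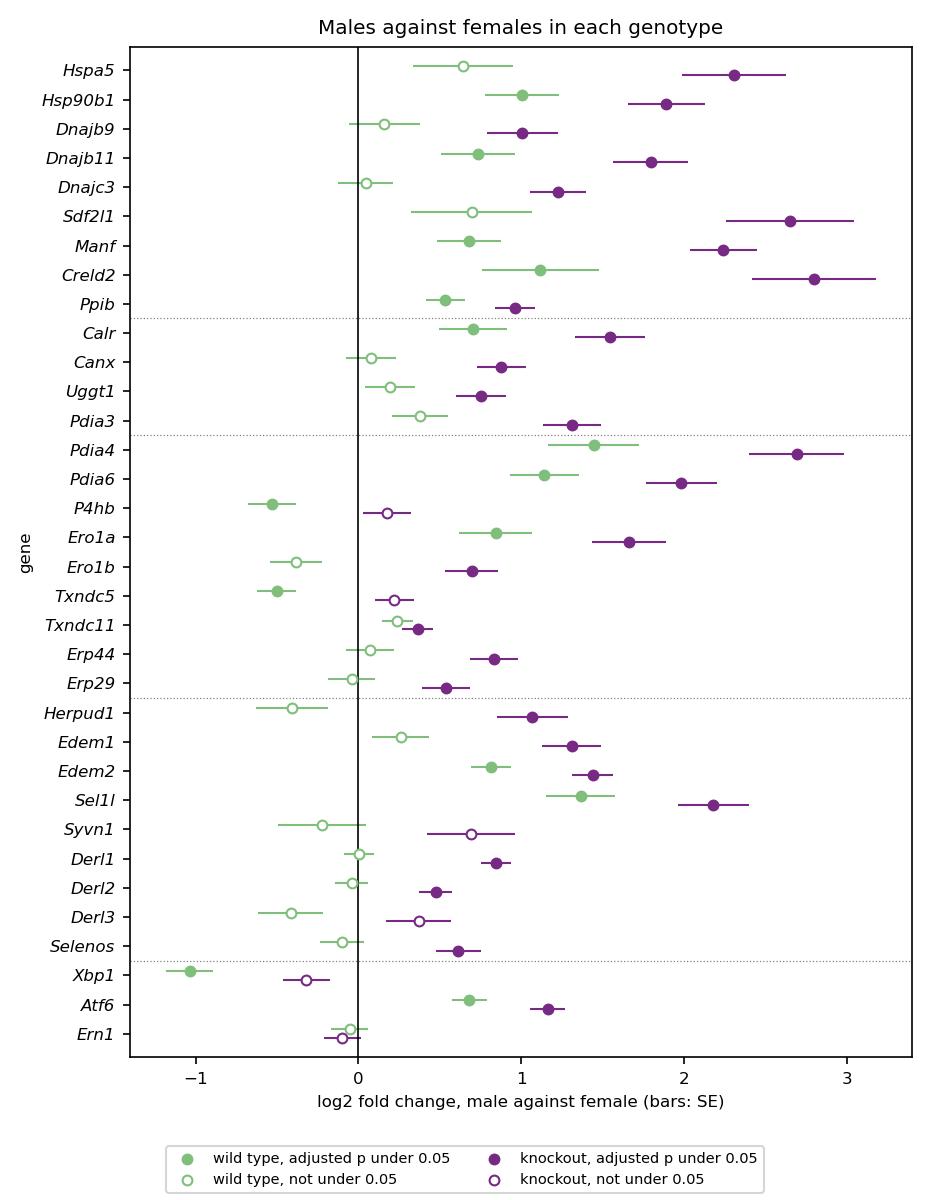
Log2 fold change of males against females (horizontal axis, bars: SE) for each of the 34 genes in WT (green) and knockout (purple) mice, with filled points for an adjusted p under 0.05 in the edgeR test. Knockout points lie to the right of the WT points in all rows but Ern1, where they nearly coincide, and Xbp1, Txndc5 and P4hb are the filled points left of 0 in WT mice.

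Other genes of the same pathways came from a separate list of 91, of which 87 passed the filter. In knockout females 77 of their 87 log2 fold changes were negative and 10 positive, with a median of -0.44. Of the 87, 52 fell, 0 rose and 35 did not pass, beside 19.3% of all genes and 43.1% of the abundant coding genes that fell. By role, those that fell were 9 of 18 chaperones, 6 of 8 lectin-cycle and cargo-receptor genes, 7 of 17 disulfide genes, 20 of 27 ERAD genes and 10 of 17 stress-signalling genes. In males 0 of 87 passed in either direction, with 8 at an unadjusted p under 0.05 (11.5% of all genes). In the interaction 36 were lower and 0 higher, beside 12.4% of all genes and 27.7% of the abundant coding genes that were lower.

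Hyou1, the large ER chaperone that works with BiP, stood at 11096, 11822 and 10773 in WT females and 6534, 5192 and 6572 in knockout females (-0.88 ± 0.24, adjusted p = 0.012). In males it stood at 18092, 31098 and 17831 in WT and 19244, 30780 and 34546 in the knockout, with the same mice high and low as for Hspa5. Hspa13 (-1.13), Fkbp11 (-0.96), Mcfd2 (-1.03), Mlec (-0.92), Tmx1 (-0.95) and Qsox2 (-0.93) fell in knockout females. Mlec encodes a glycan-binding lectin of the ER, Mcfd2 a cofactor of cargo export, and Tmx1 and Qsox2 thiol oxidoreductases. The ERAD enzyme genes Ube2j1 (-0.60) and Rnf185 (-0.60), the phosphatase regulator Ppp1r15b (-0.87) and the transcription factor Creb3 (-0.64) fell too.

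For the PERK branch the RNA levels of 3 genes are given, which do not measure the activity of the kinase. Eif2ak3 stood at 3615, 4216 and 3920 in WT females and 3437, 2716 and 3591 in knockout females (-0.27 ± 0.11, adjusted p = 0.081). Atf4, translated when PERK is active, went from 4067, 4292 and 4004 to 2981, 2818 and 3042 (-0.48 ± 0.10, adjusted p = 0.0034). Ddit3, the CHOP gene induced in prolonged stress, was low throughout, from 53 to 196 across the 12 libraries. It differed by 0.42 ± 0.31 in females (adjusted p = 0.31) and 0.49 ± 0.29 in males (adjusted p = 0.56), and passed in neither.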

How the data were processed

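Total RNA of whole glands was sequenced in 12 libraries. The extracts are labelled polyadenylated RNA, whereas the protocol describes ribosomal RNA-depleted stranded libraries. The authors made the estimated counts with Salmon 1.10.1 (Gencode M35, GRCm39), summed per gene. A further table deposited by the authors gives the same genes as a normalized signal. Its scaling factors, whose making is not given in the sources used here, served as offsets in an alternative.

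Estimated counts were rounded and fitted with edgeR 4.0.16 (R 4.3.3): TMM, filterByExpr defaults (17893 of 56065 genes), quasi-likelihood tests with 1 mean per group over all 12 libraries, and Benjamini-Hochberg adjustment over all genes tested in each of 5 contrasts. SE is the log2 fold change over the root of F. The code was tested on simulated data. Alternatives were RLE and upper-quartile scaling, library sizes without the 20 most abundant genes, no filter or at least 10 counts in every library, fits within 6 libraries, a replicate block, the authors' factors, DESeq2 1.42.0 and each library left out.

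Members and gene lists were chosen with earlier results of these data known. The comparison with abundant coding genes was added after values were seen. Hspa5, Xbp1, Atf6 and Ern1 are named whatever their result, with, per contrast and direction, up to 8 members past the threshold without overlap between groups by smallest adjusted p. Of each list of other pathway genes the 2 with the smallest adjusted p in females are named, and Hyou1, Eif2ak3, Atf4 and Ddit3 always. Positions and promoter starts are from Gencode M39, to which 55563 identifiers matched. Promoter windows were read from the GRCm39 genome and not, as first planned, from RefSeq promoters, whose build differs; a planned description of protein motifs was not made. Totals of 47031917 to 67881902 counts make counting error small for these genes; the precision is set by 3 mice per group.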

Additional observations from a re-analysis of the deposited data

Results flagged for a closer look

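For 21 of the 34 genes the knockout effect differed between the sexes in the interaction test of edgeR (adjusted p under 0.05), in every case lower in females. The differences, female minus male on the log2 scale, were -1.96 for Sdf2l1, -1.68 for Creld2, -1.67 for Hspa5, -1.56 for Manf, -1.18 for Dnajc3 and -1.06 for Dnajb11 among the chaperones. In the lectin cycle and disulfide exchange they were -1.25 for Pdia4, -1.08 for Ero1b, -0.94 for Pdia3, -0.80 for Canx, -0.77 for Erp44, -0.72 for Txndc5 and -0.71 for P4hb. In ERAD they were -1.48 for Herpud1, -1.05 for Edem1, -0.84 for Derl1, -0.72 for Selenos, -0.63 for Edem2 and -0.52 for Derl2, and among the sensors and Xbp1 -0.72 for Xbp1 and -0.48 for Atf6. The 8 that passed with each of the 12 libraries left out in turn were Derl1, Dnajc3, Edem1, Ero1b, Herpud1, Manf, Pdia3 and Txndc5. No group has more than 3 mice, so single mice were not tested as outliers.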

How the results depend on the processing

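No result changed direction past the threshold under any alternative. Counts moved by over 1.5 times in these cases: without a filter 1 gene, Creld2, rose in knockout males, where 389 of 30910 genes passed in either direction against 42 of 17893 with the filter; DESeq2 called 32 genes lower in the interaction; and in knockout males against females 2 genes (Xbp1 and Ern1) were lower with upper-quartile scaling and 1 (Xbp1) in the fit within 6 libraries. With each library left out in turn, the counts ran from 20 to 28 lower in knockout females, 0 to 4 higher in knockout males (4 without knockout male 1), 8 to 31 lower in the interaction (8 without WT male 1, 12 without WT male 3, 13 without knockout male 3), 8 to 13 higher and 2 to 5 lower in WT males (5 without WT male 2), and 28 to 30 higher and 0 lower in knockout males against females. Upper-quartile scaling moved the median of all genes to 0.13 in the female comparison and to -0.18 between knockout sexes; relative to it the 34 genes' female median was -0.79, as with TMM. The call of Hspa5 in females was lost with upper-quartile scaling (adjusted p = 0.065). In the interaction that of Atf6 was lost with upper-quartile scaling (0.053) and without a filter (0.055), and that of Edem1 with the authors' factors (0.069); between WT sexes that of Ppib was lost with the authors' factors (0.06), and Hspa5 passed with them (0.037) and without a filter (0.049). The causes were not tested.

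Replicate numbers are shared between groups, but same-numbered mice did not deviate together (correlations from -0.113 to 0.0501 in females and from -0.135 to 0.0904 in males), and 2 of 6 mice, 1 of each sex, correlated best with their own number. With a replicate block the 34 genes gave 26 lower in knockout females, 0 called in knockout males, 26 lower in the interaction, and 12 higher and 3 lower between WT sexes, and all genes gave 6349 calls in females against 6611 without it.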
